A study of Mus musculus with 12 samples.

Results

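The genes described here encode the proteins of the cytosolic ribosome. They are the protein-coding genes whose symbol is Rpl or Rps followed by a digit, together with Rplp0, Rplp1, Rplp2 and Rpsa, without the Rps6k kinases and without symbols that carry the pseudogene suffix. By name, 92 genes met this rule, and 6 of them are pseudogenes in GENCODE vM21 and were left out. That leaves 86 genes of the 46078 in the count table. A filter on low counts passed 84 of them: Rpl10l had no count in any library and Rpl3l had at most 6 counts in a library, so neither was tested. The rule also takes in Rps19bp1, whose product binds Rps19 and is not itself a ribosomal protein, and it misses a few genes, such as Fau and Rack1, whose products are ribosome components.

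The RNA came from orthotopic mammary tumours of BALB/c mice that had received 300000 4T1 cells in mammary fat pad number 4. 4T1 is a metastatic mouse mammary carcinoma line, here with a firefly luciferase transgene, and all groups carry the same wild-type genotype label. Mice received vehicle, MBQ-167 at 100 mg/kg 5 times a week, paclitaxel at 5 mg/kg 1 time a week, or both drugs (the combination), from day 14 for 2 weeks, and tumours were taken on day 28. MBQ-167 inhibits the GTPases Rac and Cdc42, and paclitaxel stabilises microtubules. Each of the 4 groups holds 3 libraries labelled as biological replicates. The labels do not say that these were separate mice, so the p-values speak only of library-to-library spread, which may be technical. Cells were injected on 2 occasions, and since no label assigns a library to either, the effect of occasion and that of treatment cannot be told apart.

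The cytosolic ribosome joins a small subunit, which reads the mRNA, to a large subunit, which forms the peptide bond. Proteins named Rps belong to the small subunit and proteins named Rpl to the large subunit, while Rplp0, Rplp1 and Rplp2 form the stalk that recruits elongation factors. Most of these proteins are needed in equal number in each ribosome. Their mRNAs begin with a terminal oligopyrimidine tract, through which mTOR signalling controls their translation. The genome holds many processed pseudogenes copied from these mRNAs, and a read that lies in a stretch shared with such a copy cannot be placed uniquely.

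That sharing was measured first, because it bears on every level given here. For each gene, the share of the 50-base stretches (50-mers) of its transcripts that occur in no transcript of another annotated gene was computed. The median was 50.7% in the ribosomal protein genes and 100% in the 13730 protein-coding genes tested. Of the 86 genes, 42 (48.8%) had under 50% unique 50-mers, against 4.45% of protein-coding genes. In all, 82 of the 86 genes shared a 50-mer with another gene, with a median of 10 such genes each, and the partners comprised 1893 genes, of which 1106 are pseudogenes. Read length and the handling of reads with several placements are not stated in the sources used here.

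Stretches of coding sequence show what this means for single genes. Each is the 50-mer of a gene's coding sequence (GENCODE vM21, GRCm38) that occurs in the most other genes, not a typical one. Of all coding 50-mers, 91.3% are unique in Rpl8, 15.9% in Rps2, 6.68% in Rpl7a and 0% in Rpl24 and Rps6. The stretches are written from 5′ to 3′ on the coding strand, and no part of them is marked in capitals. Positions count from 1 at the first base of the start codon. The stretch of Rpl8 (bases 633 to 682) occurs in 1 other gene. The stretch of Rpl24 (249 to 298) occurs in 5 other genes, that of Rps6 (471 to 520) in 13, that of Rps2 (653 to 702) in 33 and that of Rpl7a (429 to 478) in 45.
Rpl8: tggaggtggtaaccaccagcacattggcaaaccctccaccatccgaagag
Rpl24: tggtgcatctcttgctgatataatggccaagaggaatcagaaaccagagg
Rps6: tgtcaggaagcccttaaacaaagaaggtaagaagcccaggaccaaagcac
Rps2: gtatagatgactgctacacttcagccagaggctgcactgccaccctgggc
Rpl7a: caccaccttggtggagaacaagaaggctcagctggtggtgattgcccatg

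Levels followed this order in part. Levels are CPM, the counts of a gene relative to the TMM-corrected library size of edgeR, and between genes they are compared per kilobase of transcript. In vehicle tumours the 14 genes with over 50% unique coding 50-mers had a median level of 381 CPM per kb. The 31 genes with no unique coding 50-mer had a median level of 16.6 CPM per kb, and the 39 genes between had 103 CPM per kb. The ranges overlapped, from 0.552 to 741 CPM per kb among the 14 genes and from 1.19 to 396 among the 31. Spearman's rho between unique coding share and level was 0.51 across the 84 genes, which share libraries and are not independent. With the unique share over the whole transcript, rho was lower, at 0.289.

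The highest level in vehicle was that of the stalk protein gene Rplp1, at 789 ± 67.5 CPM per kb (SD, n = 3). Rps15, Rps14 and Rps9, all of the small subunit, were also among the 5 highest, with 617 ± 27.2, 594 ± 131 and 594 ± 41.8 CPM per kb. The libraries of these 3 genes overlapped. At the other end stood Rps13 with 2.62 ± 0.64 CPM per kb, Rpl17 with 1.79 ± 0.31, Rpl29 with 1.5 ± 0.62 and Rpl24 with 1.19 ± 0.54. Each of these overlapped its neighbour in the order. Rpl29 shares a 50-mer with 84 other genes, and Rpl17 with 51. The lowest, Rpl39l (0.55 ± 0.25 CPM per kb), is a paralogue known from testis and is fully unique, so its low level does not go with shared sequence.

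Among core proteins the gap was wide. Rps3, a protein at the mRNA entry channel, has 97.04% unique 50-mers and collected 7366 to 12316 counts per library. Rpl24, a large subunit protein that all ribosomes carry, has 18.3% unique 50-mers and collected 6 to 36 counts per library. Rps6, the small subunit protein phosphorylated by S6 kinases, has 15.4% unique 50-mers and collected 52 to 515 counts. The counts of such genes are therefore not read here as levels of their mRNA. A low unique share did not always go with few counts. Rpl10a, with 11.9% unique 50-mers, collected 1550 to 2588 counts per library.

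**Figure D1:**
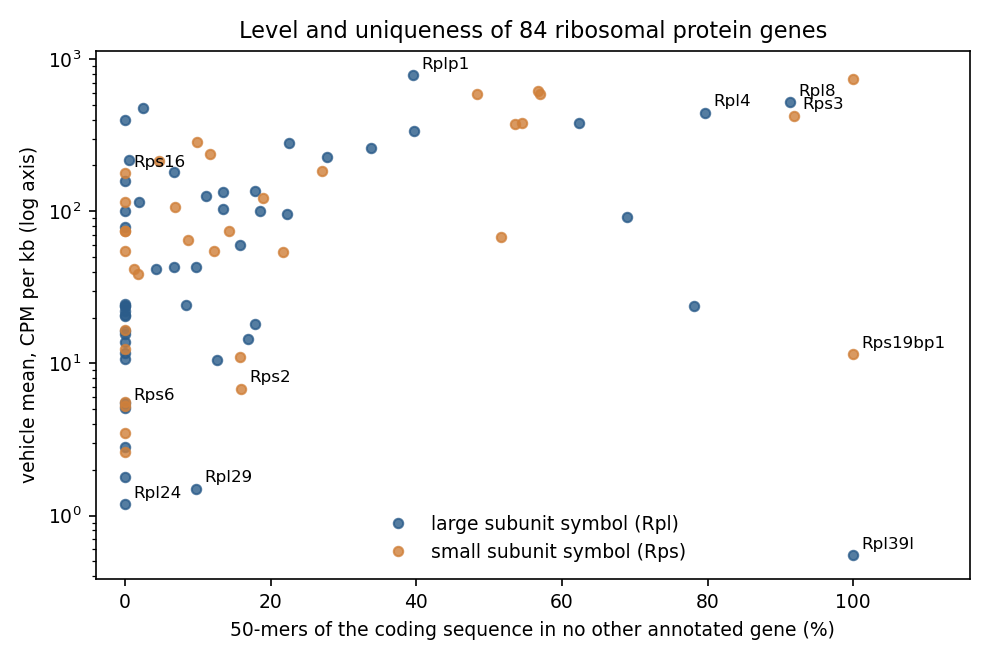
Mean level in 3 vehicle libraries (CPM per kb, log axis) against the share of coding 50-mers found in no other annotated gene, for 84 ribosomal protein genes, coloured by subunit symbol. Rpl8 and Rps3 lie at the upper right, Rpl24 and Rps6 at the lower left with no unique coding 50-mer, and the testis paralogue Rpl39l is the lowest of all.

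By unique share over the whole transcript, the genes were set in 3 classes. The class over 66.7% (25 genes, 23 tested) held 49.3% of all counts in these genes. The class from 33.3% to 66.7% (32 genes) held 39.0%, and the class under 33.3% (29 genes) held 11.7%. In the same order, the median levels in vehicle were 74, 105 and 24.3 CPM per kb, so the most unique class was not the highest. Both the class and the level per kb rest on the 1 transcript chosen for each gene. The most unique class includes Rps15a (5179 bases) and Rps20 (3706 bases), against a median of 882 bases in these genes. Of their coding 50-mers, only 15.8% and 14.3% are unique. The part of transcript choice in the order of the classes was not tested. The spread between libraries of a group was smallest in the unique class, with a median SD of 0.18 on the log2 scale, against 0.25 and 0.36 in the other classes. Counts differed in the same order, with a median lowest library count of 1039, 692 and 138. The parts of count depth and of shared sequence in the spread were not tested.

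The libraries held 11540557 to 17001562 counts, of which 52.7% to 71.5% lay in protein-coding genes and 17.1% to 37.5% in 3 rRNA-like features. The epithelial markers listed for the 4T1 carcinoma were present in all libraries, with a summed level of 920 to 2662 CPM. Of 12 neutrophil markers, 10 passed the test described below as lower in paclitaxel and 9 in the combination, beside 2.49% and 0.811% of all genes. With MBQ-167, 0 of them passed, at a median log2 fold change of -1.77. The summed level of these markers was 380 to 1603 CPM in vehicle and 213 to 346 CPM in the other 9 libraries. The summed level of 7 erythroid markers was 258 to 265 CPM in vehicle and 14.5 to 108 CPM in the other libraries, and no marker of any list was at 0 throughout. Among genes, the correlation of GC content with the deviation of a library from the mean was 0.107 to 0.277 in vehicle and -0.27 to 0.123 in the other libraries. In bulk tumour RNA, fewer cells of a type and less RNA per cell cannot be told apart.

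Ribosomal protein genes took a small share of the protein-coding counts, and that share was highest in vehicle. The vehicle libraries gave 1.94%, 1.67% and 1.65%, and the MBQ-167 libraries 1.45%, 1.33% and 1.56%. The paclitaxel libraries gave 1.43%, 1.44% and 1.69%, and the combination libraries 1.55%, 1.499% and 1.55%. No MBQ-167 or combination library reached the lowest vehicle library, while the third paclitaxel library lay above 2 vehicle libraries. With 3 libraries against 3, an exact permutation test cannot fall below 0.1. As a share of all counts the groups overlapped, with means of 0.974% ± 0.046 (SD, n = 3) for vehicle, 0.853% ± 0.109 under MBQ-167, 0.964% ± 0.11 under paclitaxel and 0.947% ± 0.108 under both drugs.

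**Figure D2:**
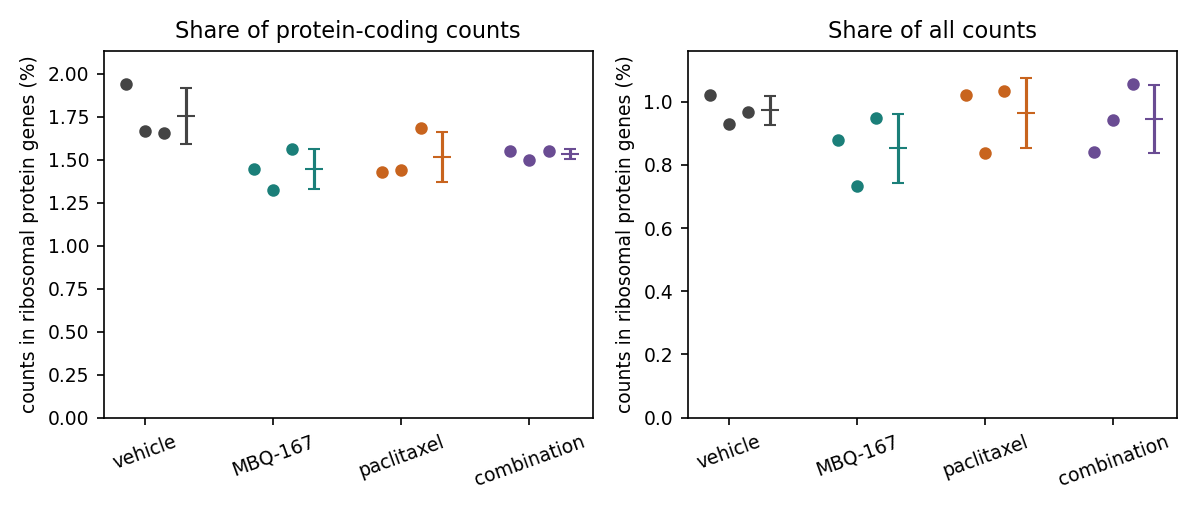
Counts in the 86 ribosomal protein genes as a percentage of protein-coding counts (left) and of all counts (right), 1 point per library, with the group mean and SD (n = 3) beside the points. On the left the vehicle libraries reach from 1.65% to 1.94% and the MBQ-167 libraries from 1.33% to 1.56%, and on the right the groups overlap.

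Each subunit was also summed on the TMM scale. The summed level of the large subunit genes was 5951 ± 522 CPM (SD, n = 3) for vehicle, 4636 ± 320 under MBQ-167, 4739 ± 565 under paclitaxel and 4852 ± 69.5 under both drugs. That of the small subunit genes was 5218 ± 539 CPM for vehicle, 3921 ± 373 under MBQ-167, 4099 ± 457 under paclitaxel and 4114 ± 87.7 under both drugs. On this scale no drug library reached the lowest vehicle library in either subunit, whereas the share of protein-coding counts in the third paclitaxel library did.

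Gene by gene, most values lay below vehicle on the TMM scale in all 3 comparisons with vehicle. When libraries were scaled to total counts, 54 of the 84 genes lay below 0 under MBQ-167, 37 under paclitaxel and 41 under both drugs. Total counts include the rRNA-like features, with means of 34.6% in vehicle, 32.6% under MBQ-167, 25.7% under paclitaxel and 28.1% under both drugs. The 3 comparisons share the vehicle libraries and are not independent. Scaling to total counts raised the median log2 fold change of all genes by 0.186 under MBQ-167, 0.322 under paclitaxel and 0.275 under both drugs. The medians of the ribosomal protein genes then became -0.15, 0.03 and 0.03. Relative to the median of all genes they stayed at -0.34, -0.29 and -0.25. All directions below are on the TMM scale, that is, relative to the bulk of the genes.

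For MBQ-167 against vehicle, the question is what a Rac and Cdc42 inhibitor alone does to these mRNAs. No ribosomal protein gene passed the test, an adjusted p under 0.05 by edgeR's quasi-likelihood test with Benjamini-Hochberg adjustment over 18252 genes; 0.0931% of all genes passed, 0.0767% lower. At an unadjusted p under 0.05 there were 39 of 84, against 12.9% of all genes. DESeq2 passed 8 of them, all lower, among 325 of all genes. Values lay below 0 for 64 of the 84 genes on this scale, with a median log2 fold change of -0.34 (quartiles -0.46 and -0.02), against 0.00 for all genes. In 33 of the 84 (39.3%) every MBQ-167 library lay below every vehicle library, against 8.79% of all genes and 9.24% of protein-coding genes. In 1 gene, Rpl17, every MBQ-167 library lay above, against 8.54% of all genes.

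The genes with the smallest p in that comparison were these. Rpl36, a large subunit protein, stood at -2.14 ± 0.43 on the log2 scale (SE, adjusted p = 0.116). Rpl37 had -0.61 ± 0.15 (adjusted p = 0.142), and Rps3 -0.48 ± 0.12 (adjusted p = 0.142). The 3 vehicle libraries held 893, 782 and 759 CPM of Rps3 and the 3 MBQ-167 libraries 635, 535 and 578 CPM. The groups of Rps3 did not overlap, but none of these differences passed edgeR's adjustment over all genes. DESeq2 passed Rpl36, Rpl37 and Rps3 as lower.

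For paclitaxel against vehicle, 5 ribosomal protein genes passed and all were lower, among them Rpl8, Rpl6, Rps3a1 and Rpl37. That is 5.95% of the 84, beside 5.66% of all genes passing in either direction and 2.49% lower, so the share that passed in either direction is near the background. Values lay below 0 for 59 of the 84 genes on the TMM scale (37 when scaled to total counts), with a median log2 fold change of -0.30 (quartiles -0.47 and 0.01). Every paclitaxel library lay below every vehicle library in 22 genes (26.2%), against 12.1% of all genes, and above in 4 genes, against 13.2% of all genes. At an unadjusted p under 0.05 there were 31 lower and 7 higher genes, against 22.6% of all genes in either direction.

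Rpl8 lies next to the peptidyl transferase centre of the large subunit (chromosome 15, 76904078 to 76906314, plus strand, GRCm38), and 93.5% of its 50-mers are unique. Its vehicle libraries held 626, 474 and 496 CPM and its paclitaxel libraries 313, 335 and 381 CPM. All paclitaxel libraries lay below all vehicle libraries, and the log2 difference was -0.63 ± 0.13 (SE, adjusted p = 0.0133). The MBQ-167 libraries held 391, 351 and 398 CPM and the combination libraries 378, 371 and 363 CPM. These too lay below all vehicle libraries, and the combination missed the threshold at -0.52 ± 0.13 (adjusted p = 0.0521).

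Rps3a1 is a small subunit protein near the mRNA exit (chromosome 3, 86137940 to 86142702, minus strand), with 29.0% unique 50-mers and small nucleolar RNA genes in its introns. Its vehicle libraries lay close together at 230, 230 and 242 CPM, and its paclitaxel libraries held 134, 176 and 161 CPM. The log2 fold change was -0.58 ± 0.14 (adjusted p = 0.0257). MBQ-167 libraries held 156, 168 and 165 CPM and combination libraries 204, 175 and 143 CPM, all below vehicle.

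Rpl6 is a large subunit protein (chromosome 5, 121204481 to 121209241, plus strand) with 35.7% unique 50-mers. Vehicle libraries held 262, 195 and 232 CPM and paclitaxel libraries 129, 135 and 159 CPM, without overlap. The log2 fold change was -0.70 ± 0.15 (adjusted p = 0.0163). The MBQ-167 libraries held 161, 145 and 198 CPM, and 1 of them lay above the lowest vehicle library.

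Rpl37, a zinc-binding protein of the large subunit (chromosome 15, 5116645 to 5119140, plus strand), has 68.7% unique 50-mers. Vehicle libraries held 126, 98.6 and 113 CPM, paclitaxel libraries 68.3, 67.2 and 89.0 CPM, MBQ-167 libraries 79.5, 60.3 and 81.3 CPM and combination libraries 79.01, 64.9 and 80.4 CPM. All drug libraries lay below all vehicle libraries, with -0.59 ± 0.15 for paclitaxel (adjusted p = 0.0382) and -0.59 ± 0.15 for the combination (adjusted p = 0.062).

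These 5 calls rest on the full set of libraries. Without the first vehicle library or without the first paclitaxel library none of the 5 passed, and the median of the 84 genes was -0.20 without that vehicle library. Only Rps3a1 of the 5 passed without the second paclitaxel library, Rpl37 was lost without the third vehicle library and Rps3a1 without the third paclitaxel library, where 10 genes passed in all. Scaled to total counts, all 5 lost the call (log2 fold changes of the 4 named genes -0.27 to -0.38), and 7 other genes passed as higher, with Rpl15 at 0.65 ± 0.15 (adjusted p = 0.0116), Rps27a at 0.89 ± 0.23 (adjusted p = 0.0214) and Rpl5 at 0.76 ± 0.23 (adjusted p = 0.0374) among them. With an offset for GC content, 3 ribosomal protein genes passed, all lower: Rpl6, Rps3a1 and Rps20. With the neutrophil level as a covariate, 1 passed, Rps21, while the median of the 84 genes was -0.42. That level did not overlap between vehicle and paclitaxel libraries, so its effect and that of treatment cannot be told apart. Calls over all genes fell as well, from 1033 to 416 with the GC offset and to 109 with the neutrophil covariate. With both groups alone in the fit, 0 passed.

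**Figure D3:**
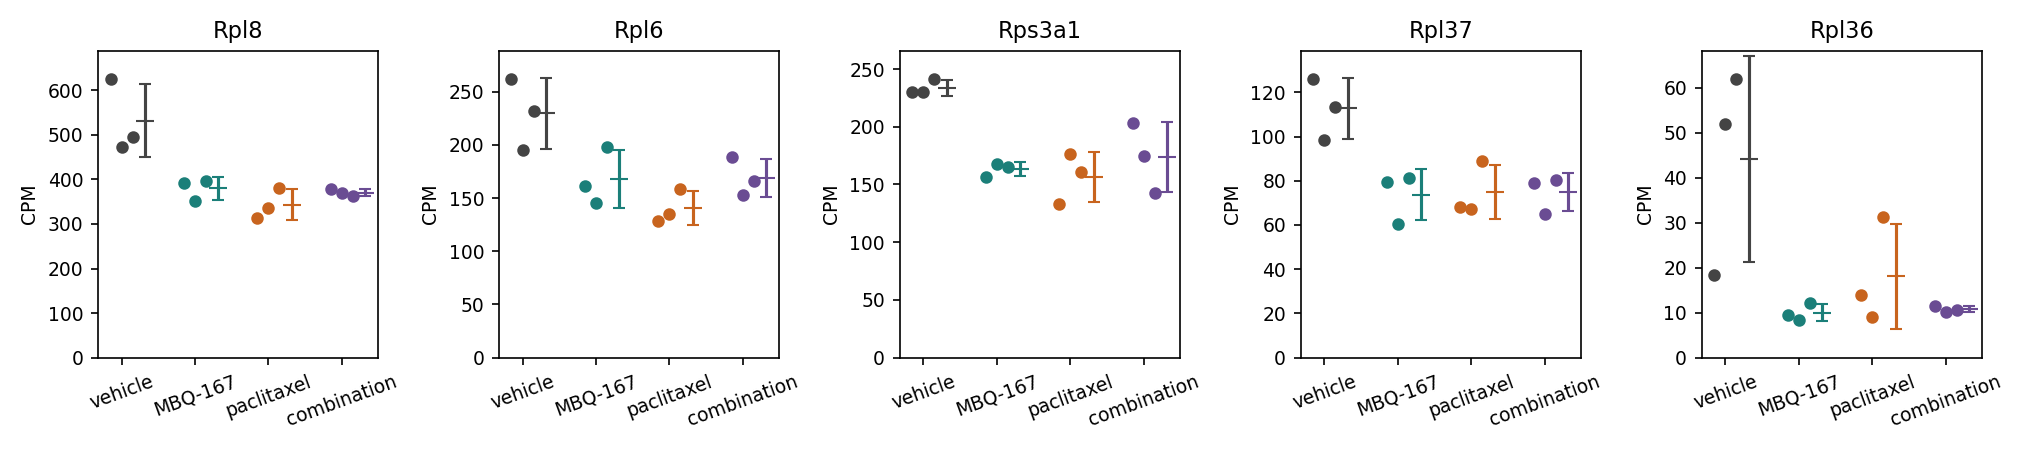
CPM per library of 4 genes that passed in paclitaxel against vehicle (Rpl8, Rpl6, Rps3a1, Rpl37) and of Rpl36, which passed in the combination, with the group mean and SD (n = 3) beside the points. In Rpl8 the vehicle libraries lie from 474 to 626 CPM and all 9 drug libraries at or below 398 CPM, while the vehicle libraries of Rpl36 spread from 18.4 to 62.0 CPM.

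For the combination against vehicle, 1 ribosomal protein gene passed, Rpl36, beside 1.84% of all genes in either direction and 0.811% lower. Values lay below 0 for 61 of the 84 genes on the TMM scale (41 when scaled to total counts), with a median log2 fold change of -0.24 (quartiles -0.44 and 0.02). Every combination library lay below every vehicle library in 30 genes (35.7%), against 9.86% of all genes, and above in 2 genes, against 11% of all genes. At an unadjusted p under 0.05 there were 30 lower genes and 1 higher gene, against 18.4% of all genes in either direction.

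Rpl36 (chromosome 17, 56613416 to 56614243, plus strand) has 18.9% unique 50-mers and shares 50-mers with 12 other genes. Its vehicle libraries held 18.4, 52.0 and 62.0 CPM, MBQ-167 libraries 9.53, 8.30 and 12.1 CPM, paclitaxel libraries 13.8, 9.01 and 31.3 CPM and combination libraries 11.5, 10.2 and 10.6 CPM. No combination or MBQ-167 library reached the lowest vehicle library, and in CPM the vehicle libraries differed most among themselves, whereas the ratio of highest to lowest library was largest in paclitaxel (3.47). The log2 fold change of the combination was -2.04 ± 0.43 (adjusted p = 0.0338). Of the 6 fits that each left out 1 library of these groups, the gene passed only in that without the first vehicle library. Among 13 other settings it passed in 9. It did not pass with voom of limma, where only Rpl8 passed, or with the GC offset, where only Rps20 passed. Nor did it pass with the neutrophil covariate or with only the groups compared in the fit.

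Across the 3 comparisons with vehicle, 51 of the 84 genes lay below 0 in each and 12 above 0 in each. The comparisons share the vehicle libraries, and no share over all genes stands beside these counts, so they are description only. In 12 genes all drug libraries lay below all vehicle libraries in each comparison, against 3.95% of all genes, and in 0 genes did they lie above. Among them are Rpl7a, Rpl8, Rpl10a, Rpl37, Rps3, Rps3a1, Rps9, Rps15, Rps19 and Rps19bp1. On total counts the genes lower without overlap numbered 11 under MBQ-167, 4 under paclitaxel and 2 under both drugs, against 2.53%, 1.76% and 1.8% of all genes, and the 2 under both drugs are near that background.

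The classes of shared sequence were not alike in spread. Among the 23 tested genes with over 66.7% unique 50-mers, 21 lay below 0 with MBQ-167, 17 with paclitaxel and 19 with the combination, with medians of -0.35, -0.30 and -0.32. Among the 29 genes under 33.3%, 19, 18 and 17 lay below 0, with medians of -0.18, -0.09 and -0.18. No test of the difference between classes was made. Across the 84 genes, Spearman's rho of GC content with the log2 fold change was -0.209, -0.359 and -0.299, and across all genes tested -0.197, -0.402 and -0.337. The part of GC content and of neutrophil and erythroid RNA in these values was not tested. With the GC offset the medians were -0.37, -0.23 and -0.25, and with the neutrophil covariate -0.41, -0.42 and -0.42. That covariate was 0.732 to 3.048 in vehicle and -1.412 to 0.319 in the drug libraries. Its effect and that of treatment therefore cannot be told apart.

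**Figure D4:**
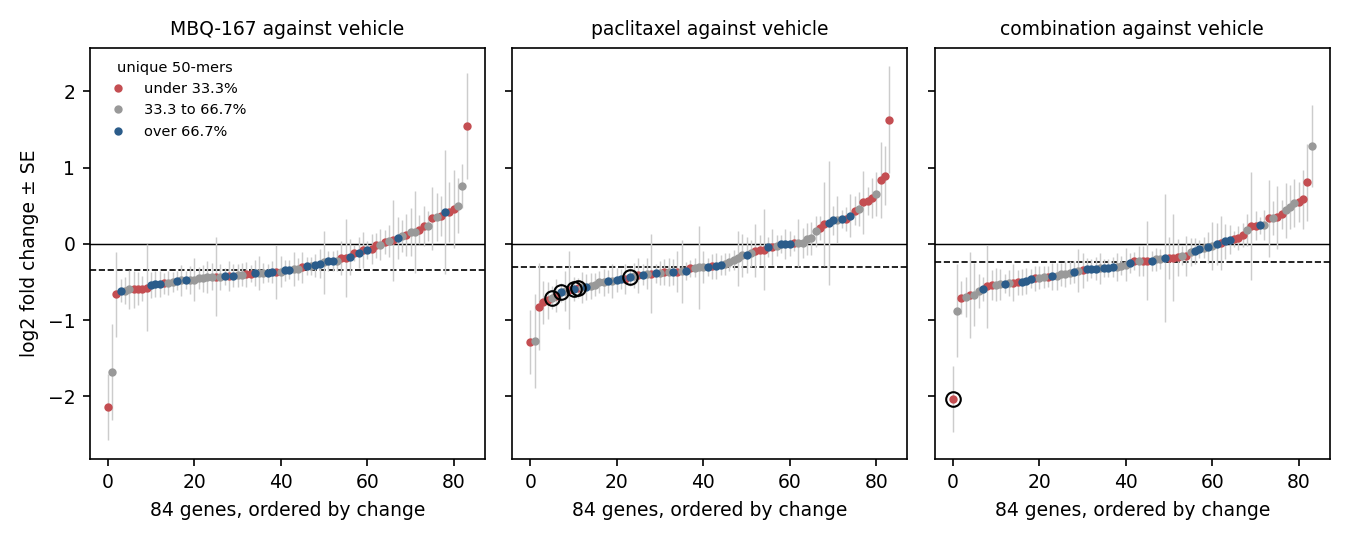
Log2 fold change ± SE of 84 ribosomal protein genes against vehicle on the TMM scale, ordered by value within each panel, coloured by the share of unique 50-mers; the dashed line is the median and rings mark genes that passed the test. The medians lie at -0.34, -0.30 and -0.24, the values farthest from 0 belong to genes with under 66.7% unique 50-mers, and scaling to total counts would move the last 2 medians to 0.03.

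The stalk and Rpsa were examined by name. Rplp0 anchors the stalk, and its vehicle libraries held 542, 379 and 444 CPM against 300, 298 and 364 CPM with paclitaxel. The groups did not overlap, and the log2 fold change of -0.51 ± 0.14 missed the threshold (adjusted p = 0.0556). Rplp1 and Rplp2, which bind Rplp0 in pairs, had -0.24 ± 0.12 (adjusted p = 0.247) and -0.47 ± 0.15 (adjusted p = 0.0854). Rpsa, a small subunit protein also known as the laminin receptor, had 0.07 ± 0.21 with paclitaxel and -0.54 ± 0.21 with the combination, neither past the test.

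Paralogues, some of which replace or accompany a core protein in some tissues, did not pass the test on the TMM scale. Rpl22l1, the paralogue of Rpl22, held 34.5, 30.7 and 34.1 CPM in vehicle and 59.4, 44.7 and 31.8 CPM with paclitaxel. The groups overlapped, and the log2 fold change was 0.46 ± 0.22 (adjusted p = 0.237). Scaled to total counts it passed as higher, at 0.80 ± 0.24 (adjusted p = 0.0402 by edgeR's quasi-likelihood test). Rpl36al had -0.52 ± 0.17 with MBQ-167 (adjusted p = 0.218) and Rpl7l1 -0.32 ± 0.12 with the combination (adjusted p = 0.167). Rps27l had 0.00 ± 0.20 with paclitaxel, with overlapping groups. Rps27rt had -0.31 ± 0.20 with MBQ-167 (adjusted p = 0.553). Rps19bp1, which is not a paralogue, had -0.50 ± 0.17 with the combination (adjusted p = 0.145).

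Several of the widest fold changes belonged to genes in which 1 or 2 libraries stood apart. Rps6 held 3.98 to 5.74 CPM in vehicle, 27.8, 7.22 and 5.42 CPM in MBQ-167, 3.33, 7.98 and 31.6 CPM in paclitaxel and 4.74 to 6.13 CPM in the combination. Only the first MBQ-167 and the third paclitaxel library stood apart, and the fold changes of 1.54 ± 0.70 and 1.63 ± 0.70 did not pass edgeR's test (adjusted p = 0.37 and 0.181). Without the filter on low counts Rps6 passed as higher in both comparisons. Rpl26, a protein near the exit tunnel, held 15.2 CPM in the third vehicle library and 1.502 to 4.65 CPM in the 11 others.

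Rpl28 showed the same in another library, with 29.3 CPM in the third combination library and 3.16 to 9.56 CPM elsewhere. Rps18 held 58.0 CPM in the second vehicle library and 10.4 to 40.6 CPM elsewhere. In the class with few unique 50-mers, 7 of 29 genes had a ratio over 3 between the highest and lowest library of a group, against 3 of 32 in the middle class and 1 of 23 in the unique class. The class with few unique 50-mers also had the lowest counts. Rpl28 overlaps Ube2s and Rps18 overlaps Vps52 on the opposite strand, and the sources used here do not give the strand setting of the counts.

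**Figure D5:**
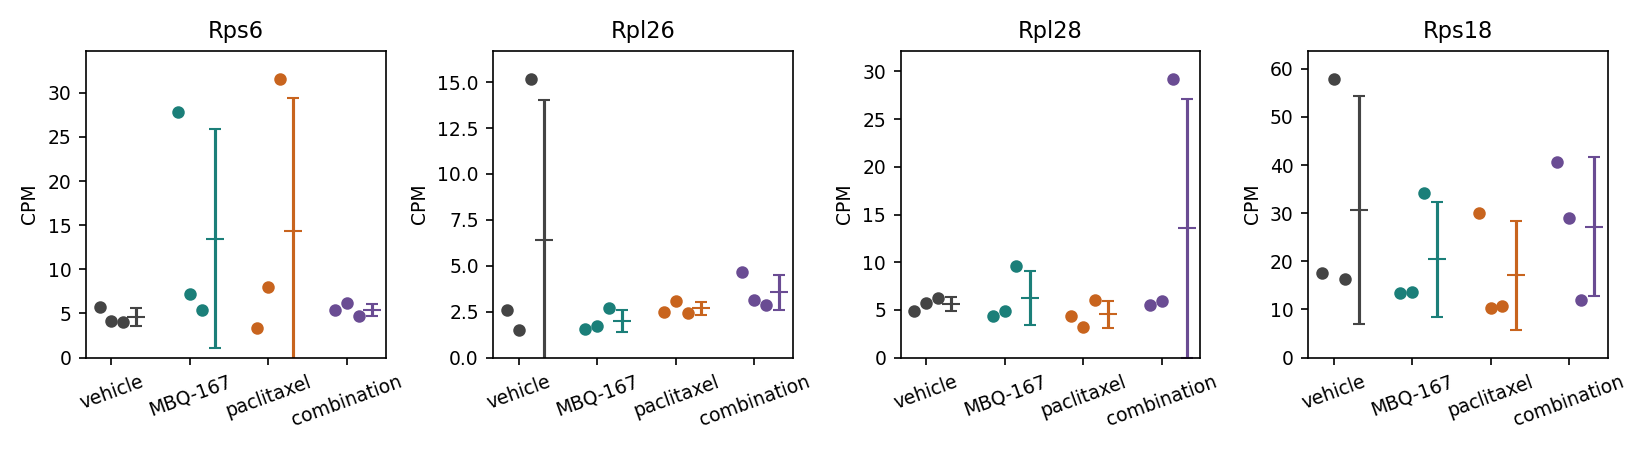
CPM per library of Rps6, Rpl26, Rpl28 and Rps18 in the 4 groups, with the group mean and SD (n = 3) beside the points. Error bars end at 0 where the SD reaches below it. In Rps6, Rpl26 and Rpl28, 1 or 2 libraries stand far above the rest and Rps18 is spread within every group; the highest points include 31.6 CPM of Rps6 in the third paclitaxel library and 29.3 CPM of Rpl28 in the third combination library.

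The remaining low and high ends were held mostly, but not only, by genes with few counts or wide spread. With MBQ-167 they were Rpl36a at -0.66 ± 0.56, Rpl17 at 0.76 ± 0.29, Rpl11 at 0.50 ± 0.36 and Rpl24 at 0.46 ± 0.51. With paclitaxel they were Rpl35 at -0.77 ± 0.28, Rps18 at -0.82 ± 0.57, Rpl9 at 0.89 ± 0.39, Rpl24 at 0.84 ± 0.50 and Rpl17 at 0.66 ± 0.28. With the combination they were Rpl7a at -0.71 ± 0.22, Rps26 at -0.70 ± 0.26, Rpl28 at 1.28 ± 0.53, Rpl24 at 0.81 ± 0.50, Rpl9 at 0.58 ± 0.39 and Rpl30 at 0.55 ± 0.27. None of these passed edgeR's test on the TMM scale with the filter on low counts. Without that filter Rpl35 passed as lower and Rpl9 as higher with paclitaxel. Rpl7a and Rps26 then passed as lower and Rpl28 as higher with the combination, and DESeq2 also passed Rpl7a there. Rpl7a collected 234 to 662 and Rps26 764 to 2293 counts per library. All drug libraries of Rpl7a lay below all its vehicle libraries. On total counts Rpl17 and Rpl30 passed edgeR's test as higher with paclitaxel (adjusted p = 0.046 and 0.0392). Rpl11, which with Rpl5 and the 5S rRNA can bind Mdm2, held 37.2 CPM in the first MBQ-167 library and 39.5 CPM in the first combination library, and 12.9 to 23.6 CPM in the 10 others.

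The combination was also set against each single drug. For the combination against MBQ-167, 0 of 84 genes passed and 0% of all genes passed by edgeR's quasi-likelihood test. At an unadjusted p under 0.05 there were 6 of the 84 and 940 of all genes, and DESeq2 passed 1 of all genes. The groups did not overlap in 10 genes (11.9%), against 12.5% of all genes, and the median log2 fold change was 0.07. For the combination against paclitaxel, 0 of 84 genes and 0% of all genes passed by the same test, with 2 and 430 at an unadjusted p under 0.05 and 5 of all genes by DESeq2. The groups did not overlap in 2 genes (2.38%), against 7.28% of all genes, and the median was -0.03.

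The interaction asks whether the combination equals the sum of the single effects on the log2 scale. By edgeR's quasi-likelihood test, 0 of 84 genes passed, beside 0.0603% of all genes, with 23 of the 84 and 1795 of all genes at an unadjusted p under 0.05, and 153 of all genes by DESeq2. Values lay above 0 for 61 of the 84 genes, with a median of 0.27 on the TMM scale and 0.03 on total counts, where the median of all genes was -0.23. Among the smallest p were those of Rps3a1 at 0.67 ± 0.19 (adjusted p = 0.266), Rpl6 at 0.71 ± 0.21 (adjusted p = 0.278) and Rpl8 at 0.60 ± 0.18 (adjusted p = 0.29). A positive value here means that the combination lay higher, relative to vehicle, than the sum of both single effects would place it. The same vehicle libraries enter every interaction value with a plus sign, so these values are not independent of the comparisons with vehicle. Without the first vehicle library the median was 0.20.

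Other genes of translation were counted on the same scale. Of the 3 ribosome components outside the symbol rule, 0 passed, and Fau, which encodes Rps30 fused to a ubiquitin-like protein, held 218, 205 and 216 CPM in vehicle against 141, 152 and 182 CPM with paclitaxel (-0.43 ± 0.12, adjusted p = 0.0527). Rack1, a scaffold on the small subunit, had -0.28 ± 0.14 with paclitaxel (adjusted p = 0.251).

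Of 23 elongation factors and other mRNAs with a terminal oligopyrimidine tract, 5 fell and 1 rose with paclitaxel, and 0 passed in the other comparisons with vehicle. Eef1a1, which delivers aminoacyl-tRNA, held 3477, 2898 and 2927 CPM in vehicle and 1942, 1885 and 2329 CPM with paclitaxel (-0.60 ± 0.14, adjusted p = 0.0251). Eef1d and Eef1b2, which recharge Eef1a1 with GTP, fell by 0.49 and 0.46 on the log2 scale. Gas5, a non-coding host of small nucleolar RNAs, rose by 0.56 ± 0.15 (adjusted p = 0.0381). The list's medians, in the order of the comparisons above, were -0.38, -0.40 and -0.37.

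Further lists cover ribosome assembly, its transcription and its control. Of 40 ribosome biogenesis genes, 1 fell (Rrp1, -0.53 ± 0.12, adjusted p = 0.0249) and 1 rose (Wdr12, 0.52 ± 0.13, adjusted p = 0.0349) with paclitaxel, and the list medians were -0.02, -0.05 and -0.07. Of 18 genes of RNA polymerase I, 2 fell with paclitaxel, Polr2e (-0.65 ± 0.13) and Polr1d (-0.47 ± 0.11), with medians of -0.03, -0.06 and -0.14. Of 22 initiation factors, Eif3b fell with paclitaxel (-0.40 ± 0.11, adjusted p = 0.0404), with medians of -0.18, -0.09 and -0.13. Of 23 genes of MYC and mTOR control, Mxd1, a partner of Max that opposes Myc, fell with paclitaxel (-1.14 ± 0.22, adjusted p = 0.0115) and the combination (-1.21 ± 0.22, adjusted p = 0.0221), with medians of -0.01, -0.13 and -0.13. Beside these counts stand 0.0931%, 5.66% and 1.84% of all genes that passed. The differences between lists were not tested.

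Promoters were read for short motifs that ribosomal protein genes may share. RefSeq promoter windows on GRCm38.p6 (250 bases before to 50 after the start) were matched for 66 of the 86 genes, and each motif was searched on both strands. The ETS core CCGGAAG was in the window of 26 genes (39.4%), against 9.93% of 27025 genes. The YY1 core AAGATGGC was in 6 genes (9.09%, against 3.19%), the SP1 box GGGCGG in 41 (62.1%, against 38.2%) and the TATA box TATAAA in 7 (10.6%, against 15.7%). A match is a description of letters and not a bound site.

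The windows of 3 genes that passed in paclitaxel and of Rplp0, just outside the threshold, are printed from 120 bases before to 20 after the start, 5′ to 3′ on the strand of the gene, with the ETS core in capitals. They lie at chr15:5116493-5116632 (Rpl37, plus strand), chr5:121204381-121204520 (Rpl6, plus strand), chr3:86142649-86142788 (Rps3a1, minus strand) and chr5:115559347-115559486 (Rplp0, plus strand). The windows of Rpl37, Rpl6 and Rps3a1 hold 1 ETS core each and that of Rplp0 holds 0. The same windows of Rps3 and Rps9, not printed, hold 0 as well, though both genes lay below vehicle without overlap in all 3 comparisons. No window was matched for Rpl8 or Rpl36. A link between the ETS core and the changes was not tested. No match in a window says only that these letters are not in it.
Rpl37: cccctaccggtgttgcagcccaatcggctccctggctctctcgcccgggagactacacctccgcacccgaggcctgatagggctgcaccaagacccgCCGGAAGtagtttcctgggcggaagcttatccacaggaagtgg
Rpl6: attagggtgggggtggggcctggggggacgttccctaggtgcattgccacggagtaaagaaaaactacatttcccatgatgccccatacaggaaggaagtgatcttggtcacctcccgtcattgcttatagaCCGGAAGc
Rps3a1: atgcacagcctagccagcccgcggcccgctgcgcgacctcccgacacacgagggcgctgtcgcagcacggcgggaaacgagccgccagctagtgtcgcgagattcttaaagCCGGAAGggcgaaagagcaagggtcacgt
Rplp0: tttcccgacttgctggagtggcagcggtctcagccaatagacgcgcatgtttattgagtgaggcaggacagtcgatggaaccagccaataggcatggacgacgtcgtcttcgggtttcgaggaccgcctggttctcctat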

How the data were processed

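The authors deposited raw counts, 1 column per library, for 46078 genes. Per the submitters' processing notes, reads were aligned with HISAT2 to GRCm38 and counted with HTSeq, and DESeq2 was used; versions, strandedness and the treatment of multiply placed reads are not stated in the sources used here. Per the labels, the molecule was polyA RNA.

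Symbols, biotypes and transcripts came from GENCODE vM21. Genes were kept by filterByExpr (minimum count 10), and 18252 remained. All 12 libraries entered 1 fit by the quasi-likelihood method of edgeR (version 4.0.16, R 4.3.3) after TMM scaling, with Benjamini-Hochberg adjustment over all genes and a threshold of 0.05. DESeq2 1.42.0 and voom of limma 3.58.1 were alternatives. The fit was tested on simulated data. Replicates differed by more than sampling noise.

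The genes, lists and tests were chosen with earlier results of these data known. Named were all genes that passed, the 4 lowest and 4 highest per comparison with vehicle among those averaging 1 CPM or more, the 5 highest and 5 lowest per length, the stalk, Rpsa, paralogues, and the 4 passing genes of smallest p per translation list and comparison; other names were chosen after their values were seen. A few genes that meet this rule are not reported here by name, though the counts include them.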

Additional observations from a re-analysis of the deposited data

How the results depend on the processing

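None of the 6 genes that passed changed sign in any alternative run. Genes passing (MBQ-167, paclitaxel, combination) numbered 0, 5 and 1 by edgeR as reported (17, 1033 and 336 of all genes), 8, 16 and 6 by DESeq2 (325, 1772 and 958), 8, 20 and 8 without a filter on low counts (392, 1554 and 849; interaction 2 of 197), and 1, 8 and 2 with pseudogene counts added (18, 1036 and 341). Paclitaxel gave 8 with voom, 3 with the GC offset (416 of all genes) and 1 with the neutrophil covariate (109), which left 0 in the combination; fits of only the groups compared left 0 in both. The neutrophil covariate, which did not overlap between vehicle and drug libraries, gave medians of -0.42 for paclitaxel, -0.42 for the combination and 0.42 for the interaction. Total counts, chosen after seeing the data, gave medians of -0.15, 0.028 and 0.029 (interaction 0.032) and 11, 4 and 2 genes lower without overlap, against 2.53%, 1.76% and 1.8% of all genes.

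The replicate block gave 1, 10 and 2 passing genes (24, 1092 and 300 of all genes). The 18 same-numbered pairs of libraries correlated at -0.185 to 0.243, only 3 over 0.1. The labels do not say that equal numbers mark a shared animal, day or batch. These correlations, given without those of differently numbered pairs, cannot show whether they do. Leaving out each library in turn gave 0 to 1, 0 to 10 and 0 to 1 passing genes and medians of -0.38 to -0.25, -0.32 to -0.20 and -0.32 to -0.19. It gave 34 to 41, 24 to 39 and 31 to 37 genes lower without overlap, against 12.2% to 15.9%, 15.7% to 20% and 13.4% to 17.1% of all genes. For the interaction the median was 0.20 to 0.40, for the combination against MBQ-167 -0.01 to 0.13 and against paclitaxel -0.07 to 0.08.

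The share of protein-coding counts (1.75%, 1.45%, 1.52% and 1.53% in vehicle, MBQ-167, paclitaxel and the combination) became 0.974%, 0.853%, 0.964% and 0.947% of all counts, 1.49%, 1.26%, 1.30% and 1.32% without the rRNA-like features, and 1.99%, 1.63%, 1.71% and 1.73% with pseudogene counts added. The causes of these shifts were not tested. Low counts limit genes such as Rpl24 and Rpl39l.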

Other observations

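A few further genes differed widely between libraries of the same group. Rps12, a small subunit protein, held 128, 53.1 and 19.7 CPM in the vehicle libraries, a range that covers all drug libraries (30.6 to 88.2 CPM). Rpl36a held 21.1, 3.08 and 16.7 CPM in the paclitaxel libraries. Rps28, with 44.6% unique 50-mers, held 27.2, 43.5 and 11.6 CPM in the MBQ-167 libraries. No difference of these genes from vehicle passed edgeR's test. In contrast Rpl3, with 14.4% unique 50-mers, held 51.5 to 64.4 CPM in all 12 libraries.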
